A study of Mus musculus with 8 samples.

Results

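The 10 genes described here, chosen by symbol, are standard readouts of the hepatic stellate cell and of its activation: Acta2, Tagln, Des, Pdgfra, Pdgfrb, Ngfr, Lrat, Reln, Hgf and Wt1. All 10 were among the 15283 genes of the bulk table and the 22578 genes of the nucleus table. Livers came from Tgfbr1 MKO mice, whose genotype is flox/flox with LysMcre, and from control mice, which carry the flox/flox alleles without the Cre. Every mouse of both genotypes had received a MASH diet, a model of metabolic dysfunction-associated steatohepatitis, for 30 weeks; the sources used here do not give strain, sex or age. Bulk liver RNA was sequenced from 3 MKO and 3 control samples. Single-nucleus RNA was sequenced from 1 pool of 3 MKO livers and 1 pool of 3 control livers. LysMcre drives Cre from Lyz2, a gene of macrophages, monocytes and neutrophils, so that stellate cells are not the cells the deletion is directed at. The comparison asks how the stellate cell genes of a steatohepatitic liver stand when the receptor is removed from myeloid cells.

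Hepatic stellate cells lie between hepatocytes and sinusoidal endothelium and store most of the vitamin A of the body as retinyl esters. After injury they can lose these stores, divide in response to platelet-derived growth factor, assemble contractile filaments and deposit collagen. TGF-beta, much of it released by macrophages, is the best known inducer of that collagen programme. Acta2 encodes smooth muscle alpha-actin, and Tagln the actin-binding protein transgelin; both are read as marks of the contractile, activated state. Des encodes the intermediate filament desmin, Pdgfra and Pdgfrb the receptors for platelet-derived growth factors, and Ngfr the low-affinity neurotrophin receptor p75. Lrat encodes the enzyme that makes retinyl esters. Reln and Hgf encode secreted proteins, reelin and hepatocyte growth factor, and Wt1 a transcription factor of mesothelium and of some stellate cells.

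Start-site sequences of 2 members are shown because they stand for the activated and the storing state. They were also the searched member windows that hold a CArG-like box. They are 300-base windows from RefSeq on GRCm38.p6, each from 250 bases before to 50 after the start site, read 5′ to 3′ on the gene's strand. Capitals mark CArG-like boxes, the CC-(A/T-rich)-GG element known for serum response factor in muscle genes, searched on both strands with 1 base other than A or T allowed among the middle 6.
Acta2, chr19:34255324-34255623, minus strand: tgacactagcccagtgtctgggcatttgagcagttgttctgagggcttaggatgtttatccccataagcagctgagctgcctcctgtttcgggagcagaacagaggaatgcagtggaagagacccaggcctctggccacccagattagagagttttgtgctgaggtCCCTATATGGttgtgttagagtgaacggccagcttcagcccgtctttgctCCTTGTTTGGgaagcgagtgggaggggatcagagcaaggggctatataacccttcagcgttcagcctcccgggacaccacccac
Lrat, chr3:82903925-82904224, minus strand: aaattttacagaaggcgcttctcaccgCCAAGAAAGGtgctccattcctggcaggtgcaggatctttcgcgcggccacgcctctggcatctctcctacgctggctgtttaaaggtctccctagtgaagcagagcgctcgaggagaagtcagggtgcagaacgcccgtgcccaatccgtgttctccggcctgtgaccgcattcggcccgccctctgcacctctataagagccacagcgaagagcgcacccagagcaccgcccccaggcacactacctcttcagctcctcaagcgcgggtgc
In the Acta2 window the boxes lay at -84 to -75 and -34 to -25 from the start site, and in the Lrat window the single box lay at -223 to -214. The search covered 8 windows for 7 members, with a pair for Hgf. No window of Tagln, Pdgfrb or Wt1 was searched, so the member counts below leave these genes out. CArG-like boxes were found in 2 of the 8 member windows, those shown, and in 9.98% of all 32851 windows; this looser search was added after the strict one. The strict CArG box was found in 0 of 8 and in 1.63% of all windows. On both strands, the letters CAGAC, the core of a Smad half-site, were found in 5 of 8 and in 49.6% of all windows, and CANNTG, the E-box, in 7 of 8 and in 72.3%. A match describes letters in the window and is not a binding site.

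Bulk libraries held 17448117 to 23986319 reads. Tgfbr1 itself read 560, 857 and 735 in MKO livers, against 737, 810 and 777 in control livers. The log2 fold change was -0.13 ± 0.16 (SE), with a limma adjusted p of 0.816. The sources used here do not name the floxed exon, and whole liver holds Tgfbr1 transcripts of cells without LysMcre, so that value does not check the deletion. In the macrophage-like nuclei Tgfbr1 stood at 4.87 in the MKO pool, against 13.5 in the control pool. In bulk, 8 of 13 macrophage markers rose in MKO livers (4 without MKO 2, MKO 3 or control 2), where their summed level was 12072 to 19324, against 3994 to 9070 in control livers. The 10 stellate markers, which hold no member, summed to 9903 to 10332 in MKO livers, against 7240 to 10075 in control livers, and 0 of them was called. The part of either marker shift in the member values was not tested.

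None of the 10 stellate cell genes differed between the genotypes in bulk liver beyond the spread between libraries. Called by limma on log2(value + 1) at a Benjamini-Hochberg adjusted p under 0.05 were 0 of 10 members, against 3.05% of the 15249 genes tested. At an unadjusted p under 0.05 the count was also 0, against 12.1% of all genes tested. The counts were 0 of 10 by edgeR (3.16% of all genes called) and 0 of 10 by DESeq2 (4.49%) on the recovered reads, and the authors' deposited table gives adjusted p-values from 0.488 to 0.976 for the 10. The MKO and control libraries overlapped for every member, and they did not overlap for 19.4% of all genes. With 10 members, counts of 0 lie near these shares and do not set the members apart from other genes. All 10 estimates were positive, against 45.9% of all genes, with a median log2 fold change of 0.23, against -0.02 over all genes. With edgeR, DESeq2 or quantile normalisation Acta2 turned negative and 9 remained positive. An all-positive sign was not particular to the members: it held for 10 of 10 stellate, 12 of 12 endothelial and 14 of 14 lymphocyte markers. Positive estimates were fewer among hepatocyte markers (3 of 12) and bile duct markers (0 of 10). In whole liver, fewer cells of a type and less RNA per cell cannot be told apart. No label ties the 3 libraries of either genotype to separate animals, so a p-value here covers the spread between libraries, which may be technical.

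**Figure D1:**
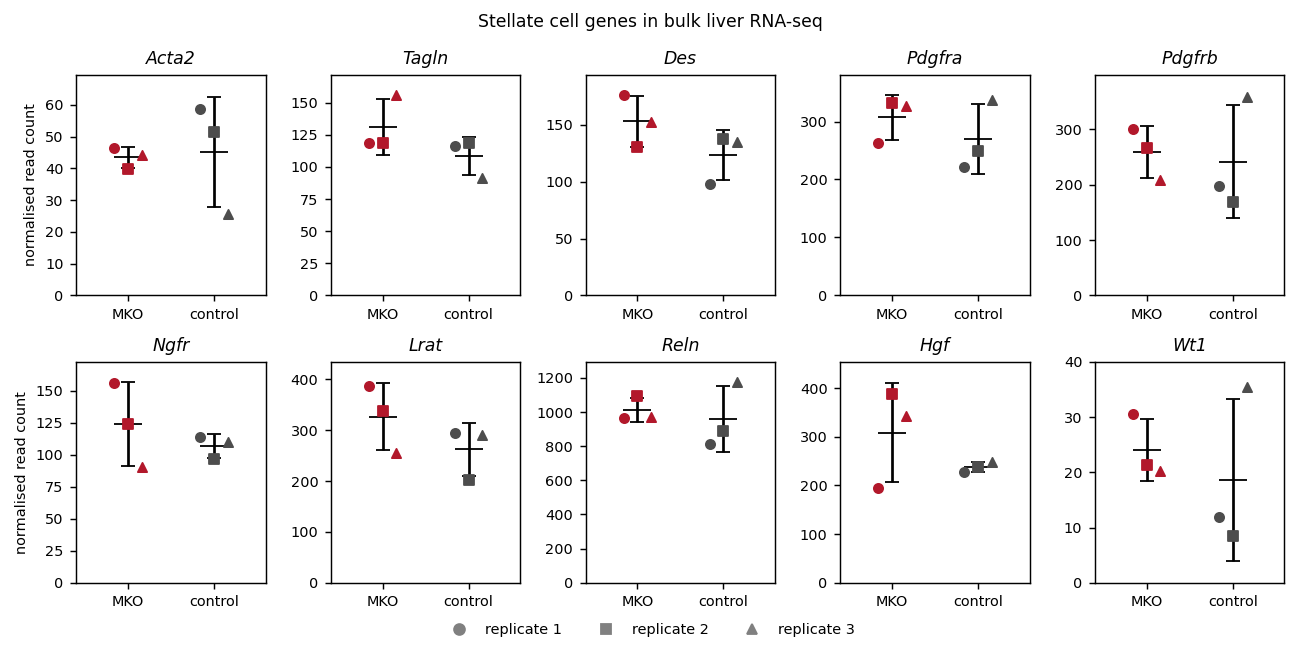
Normalised read counts (y axes, starting at 0) of the 10 genes in each of the 3 MKO (left, red) and 3 control (right, grey) liver libraries; the marker shape gives the replicate number, the horizontal line the mean and the bar the SD (n = 3). The genotypes overlap in every panel, and control 3 is the highest library for Pdgfra, Pdgfrb, Reln and Wt1 and the lowest for Acta2 and Tagln.

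Among the contractile and filament genes, Acta2 had the smallest estimate. Acta2 (chr19:34241090-34255590, minus strand, GRCm38) read 46.4, 39.8 and 44.3 in MKO livers, against 58.6, 51.4 and 25.6 in control livers. The MKO libraries lay inside the control range, with control 3 alone below them. The means were 43.5 ± 3.38 in MKO livers and 45.2 ± 17.4 in control livers (SD, n = 3 each). The log2 fold change was 0.02 ± 0.32 (SE; limma adjusted p = 0.986), with a 95% interval from -0.71 to 0.76, which covers changes from 0.610-fold to 1.69-fold. Without control 3 it was -0.33. These values rest on 26 to 54 reads per library. Acta1, Actg2 and Actc1, the near-identical muscle actins with which Acta2 reads could be split, were not among the bulk genes used here. Actb, the cytoplasmic actin, read 13115, 12517 and 18831 in MKO livers, against 11094, 14064 and 11368 in control livers.

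Tagln (chr9:45929619-45936058, minus strand) read 118, 118 and 156 in MKO livers, against 116, 119 and 91.7 in control livers. MKO 3 was the highest library and control 3 the lowest, and the other 4 lay between 116 and 119. Its log2 fold change was 0.26 ± 0.19 (SE; limma adjusted p = 0.667), with a 95% interval from -0.17 to 0.69. Des (chr1:75360329-75368579, plus strand) read 176, 131 and 152 in MKO livers, against 97.7, 138 and 135 in control livers. MKO 1 stood highest and control 1 lowest. For Des the log2 fold change was 0.31 ± 0.20 (SE; limma adjusted p = 0.605), with a 95% interval from -0.13 to 0.76.

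Of 15 tested genes of a contractile and cytoskeletal list, 2 rose and 0 fell, with a median log2 fold change of 0.05. Both encode proteins of the actin skeleton that many cell types hold. Flna, the actin crosslinker filamin A, rose to 1461, 1405 and 1695 in MKO livers, against 646, 512 and 689 in control livers (log2 fold change 1.31 ± 0.14, limma adjusted p = 0.00427). Cnn2, calponin 2, averaged 291 ± 41.4 in MKO livers and 154 ± 6.21 in control livers (SD, n = 3 each; 0.91 ± 0.15, adjusted p = 0.0147); the call was lost without MKO 3 (adjusted p = 0.0729), control 2 (0.0682) or control 3 (0.0539). The summed macrophage markers given above were higher in the same MKO libraries, and their part in these calls was not tested. In the nuclei Flna read 1.47 in the MKO pool and 1.24 in the control pool in the macrophage-like cluster, and 1.15 in the MKO pool and 0.966 in the control pool in the stellate-like cluster. Of 8 vascular smooth muscle markers listed in bulk 0 rose or fell, with a median of 0.06, a value of 0.06 ± 0.17 for Mylk, the myosin light chain kinase, and sums of 2858 to 3778 in MKO livers, against 3048 to 3886 in control livers.

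The receptor genes overlapped widely. Pdgfra (chr5:75152292-75198215, plus strand) read 262, 332 and 326 in MKO livers, against 222, 250 and 337 in control livers, and control 3 was above every MKO library. Its log2 fold change was 0.20 ± 0.18 (SE; limma adjusted p = 0.739). Pdgfrb (chromosome 18, 61045150 to 61085061, plus strand) read 301, 267 and 209 in MKO livers, against 198, 169 and 359 in control livers. The 3 MKO libraries lay between the first 2 control libraries and control 3. For Pdgfrb the log2 fold change was 0.16 ± 0.28 (SE; limma adjusted p = 0.876), 0.49 without control 3 and -0.055 without control 2. Ngfr (chr11:95568818-95587735, minus strand) read 156, 124 and 90.5 in MKO livers, against 114, 96.6 and 110 in control livers, and MKO libraries were both its highest and its lowest. For Ngfr the log2 fold change was 0.18 ± 0.22 (SE; limma adjusted p = 0.820), which became -0.0078 when MKO 1 was left out.

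The genes around these receptors were not called either. Of 8 PDGF ligands and partners 0 rose or fell, with a median of -0.18, 2 of 8 positive and 1 at an unadjusted p under 0.05. That gene was Pdgfb, the main ligand of the beta receptor, with 50.0, 42.8 and 67.4 in MKO livers, against 36.9, 34.6 and 28.6 in control livers (log2 fold change 0.65 ± 0.25, limma adjusted p = 0.344). It was picked for naming after its values were seen. Of 9 neurotrophin genes 0 rose or fell, with a median of -0.13. The most abundant of them, Maged1, an adaptor of p75, read 1703, 2255 and 2010 in MKO livers, against 2653, 2449 and 2448 in control livers (-0.35 ± 0.13, limma adjusted p = 0.291).

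Lrat (chr3:82892579-82903973, minus strand), the retinyl ester enzyme, read 387, 338 and 256 in MKO livers, against 295, 202 and 290 in control livers. MKO 1 and MKO 2 were above all controls, while MKO 3 was between control 2 and the other two. The means were 327 ± 66.0 in MKO livers and 262 ± 52.6 in control livers (SD, n = 3 each). The log2 fold change was 0.32 ± 0.21 (SE; limma adjusted p = 0.621), with a 95% interval from -0.15 to 0.79. Of 21 retinoid storage and response genes 0 rose or fell, with a median of -0.01. The most abundant, Rbp4, the plasma retinol carrier made mostly by hepatocytes, read 61727, 65996 and 69092 in MKO livers, against 71686, 76721 and 67320 in control livers.

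Of the secreted proteins, Reln (chr5:21884454-22344702, minus strand) read 968, 1093 and 971 in MKO livers, against 810, 888 and 1178 in control livers. Its range in controls enclosed the MKO range. On the log2 scale the fold change was 0.09 ± 0.15 (SE; limma adjusted p = 0.871), with the narrowest 95% interval of the 10 members, from -0.25 to 0.44. Of 7 reelin signalling genes 0 were called by limma, with a median of -0.02; the most abundant, the adaptor Crk, had a log2 fold change of -0.14 ± 0.14 (adjusted p = 0.754). Hgf (chr5:16553495-16620152, plus strand) read 195, 389 and 343 in MKO livers, against 228, 238 and 247 in control livers. MKO 2 and MKO 3 were above all controls and MKO 1 was below all of them, so that the SD was 101 in MKO livers and 9.67 in control livers (n = 3 each). This gave a log2 fold change of 0.32 ± 0.24 (SE), at a limma adjusted p of 0.686. Without MKO 1 it was 0.62, with an unadjusted p of 0.00156 and an adjusted p of 0.0519, the member result nearest to the threshold in any fit with 1 library left out; for Hgf that p ran up to 0.868. Of 10 other genes of HGF signalling 0 rose or fell, with a median of 0.01. The most abundant of them, Hpn, the protease hepsin, had a log2 fold change of -0.06 ± 0.12 (limma adjusted p = 0.898). Met, the receptor of hepatocyte growth factor, read 1106, 1529 and 1071 in MKO livers, against 1382, 1594 and 1350 in control livers.

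Wt1 (chr2:105126529-105173616, plus strand) was the lowest member and the most scattered. It read 30.5, 21.4 and 20.2 in MKO livers, against 11.9, 8.40 and 35.5 in control livers, from 8 to 36 reads per library. Control 3 was the highest library and the other 2 controls the lowest. The log2 fold change was 0.59 ± 0.50 (SE; limma adjusted p = 0.726), with a 95% interval from -0.56 to 1.73, and 1.16 without control 3. On recovered reads it was 0.34 by edgeR and 0.36 by DESeq2, and the authors' deposited table gives 0.36. Of 8 mesothelial markers listed in bulk, which share Wt1's other cell type, 0 were called and 2 were positive, with sums of 348 to 425 in MKO livers, against 289 to 484 in control livers.

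**Figure D2:**
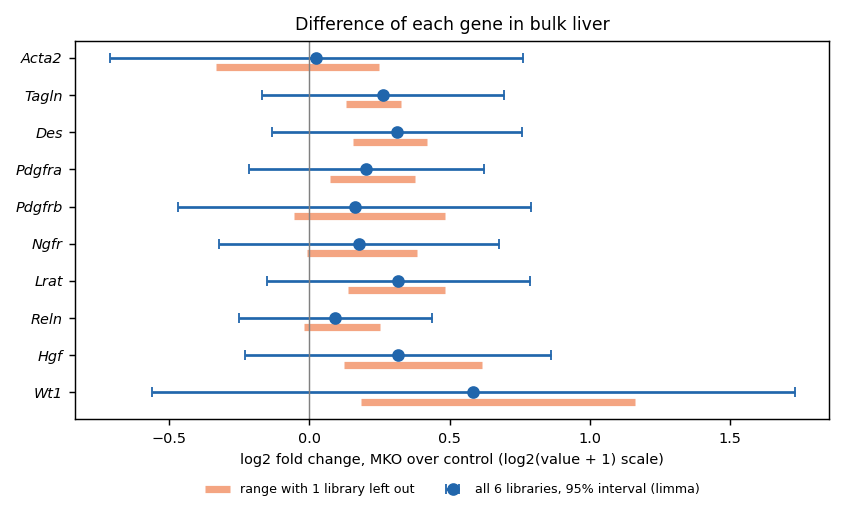
Log2 fold change of MKO over control for each gene (x axis, on the log2(value + 1) scale; dots, limma estimate over all 6 libraries; thin bars, 95% interval) with the range of estimates when 1 library is left out (thick bars). Every interval spans 0, and the leave-one-out range spans 0 for Acta2, Pdgfrb, Ngfr and Reln.

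Genes of fibrogenic activation stood beside the members as follows. Of 20 tested genes of that list 0 were called by limma, with a median log2 fold change of 0.27 and 14 of 20 positive, and DESeq2 called 1. The 4 at an unadjusted p under 0.05 were Lox, Ccn2 and Tnc, with positive estimates, and Spp1, with a negative one; Lox, Tnc and Spp1 are named after their values were seen. Ccn2, the matricellular protein CTGF and a known TGF-beta target, read 200, 341 and 392 in MKO livers, against 125, 134 and 201 in control livers. MKO 1 was just below control 3, and all other MKO libraries were above all controls. Limma gave 0.99 ± 0.28 (SE; adjusted p = 0.133) and DESeq2 an adjusted p of 0.0112; without MKO 1 the limma value was 1.28 (adjusted p = 0.0307, in a range from there to 0.392 with other single libraries left out). The most abundant gene of the list, Fn1, fibronectin, read 20616, 33557 and 24867 in MKO livers, against 26736, 36495 and 20747 in control livers.

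Other markers of stellate cells and of their neighbours gave few calls. Of 23 stellate identity and quiescence genes 0 rose or fell, with a median of 0.21 and 21 of 23 positive; Dcn, the proteoglycan decorin, read 4310, 5296 and 4904 in MKO livers, against 3475, 3826 and 4894 in control livers (log2 fold change 0.26 ± 0.15, limma adjusted p = 0.574). Of 11 portal fibroblast markers 0 were called, with a median of 0.15 and sums of 1657 to 2268 in MKO livers, against 1740 to 2883 in control livers. Of 12 endothelial markers 1 rose, Pecam1 (0.97 ± 0.17, limma adjusted p = 0.0202), with a median of 0.27; the call was lost without MKO 2 (adjusted p = 0.0816), MKO 3 (0.0858), control 2 (0.0819) or control 3 (0.0641). Of 12 hepatocyte markers, 10 bile duct markers and 7 markers of dividing cells 0 were called, with medians of -0.11, -0.22 and 0.17; Alb, albumin, had a log2 fold change of -0.02 ± 0.56. Of 14 lymphocyte markers 3 rose, Cd8a, Gzmb and Cd3e, with a median of 1.28; the count was 1 without MKO 2 or control 2 and 0 without MKO 3.

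Levels were ordered after division by the length of the merged exons (GENCODE vM21). In MKO livers the normalised count per kilobase averaged 65.8 ± 10.9 for Tagln, 61.1 ± 12.3 for Lrat and 47.3 ± 8.53 for Pdgfrb (SD, n = 3 each), against 54.7 ± 7.50, 49.0 ± 9.83 and 44.1 ± 18.7 in control livers. Hgf, Reln, Des, Ngfr and Pdgfra followed between 30.6 and 43.0 in MKO livers, against 26.9 and 40.4 in control livers, then Acta2 at 19.8 ± 1.54 in MKO livers and 20.6 ± 7.90 in control livers. Wt1 was last, at 3.26 to 4.93 in MKO livers and 1.36 to 5.73 in control livers. Neighbours in this order overlapped in their ranges over libraries, except that Acta2 lay below Pdgfra in MKO livers and Wt1 lay below Acta2 in both genotypes. The order was the same in both genotypes apart from Hgf and Reln, which changed places.

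Among the nuclei, the values are the authors' means per gene in each of 13 clusters and each pool, on a scale on which a pool's cluster sums to 10000. With 1 pool per genotype there is no test, and the sources used here do not give the number of nuclei behind a mean. Cluster 5 was stellate-like: 7 of 10 stellate markers in the MKO pool and 9 of 10 in the control pool were at least 2-fold higher there than in any other cluster, and their sum was 150 in the MKO pool and 141 in the control pool. Egfem1 and Ntm were among its leading genes in both pools. Cluster 12 was mesothelial-like, with 10 of 13 mesothelial markers at least 2-fold above any other cluster in either pool. Cluster 2 was macrophage-like (3 of 13 markers in the MKO pool and 10 of 13 in the control pool) and cluster 4 endothelial-like (4 of 12 markers in the MKO pool and 5 of 12 in the control pool).

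Reln, Pdgfra, Pdgfrb, Lrat, Des, Tagln, Ngfr and Hgf had their highest mean in stellate-like cluster 5 in both pools, and Wt1 had its highest mean in mesothelial-like cluster 12 in both. Reln reached 43.9 in cluster 5 of the MKO pool and 55.3 in that of the control pool. The next cluster stood at 1.77 in the MKO pool (cluster 9) and at 1.44 in the control pool (cluster 6). Of the sum of the 13 cluster means, cluster 5 held 94.9% for Pdgfra in the MKO pool and 95.2% in the control pool, and for Pdgfrb 91.5% in the MKO pool and 95.3% in the control pool. It held 90.9% for Lrat in the MKO pool and 70.3% in the control pool; the next highest value of Lrat was 0.109 in cluster 10 of the MKO pool and 0.309 in cluster 11 of the control pool. For Hgf the share was 77.6% in the MKO pool and 70.1% in the control pool, below those of Pdgfra and Pdgfrb. Tagln was spread more widely, with 47.1% in cluster 5 of the MKO pool and 53.9% in that of the control pool. Ngfr had 98.1% there in the MKO pool and 62.2% in the control pool.

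**Figure D3:**
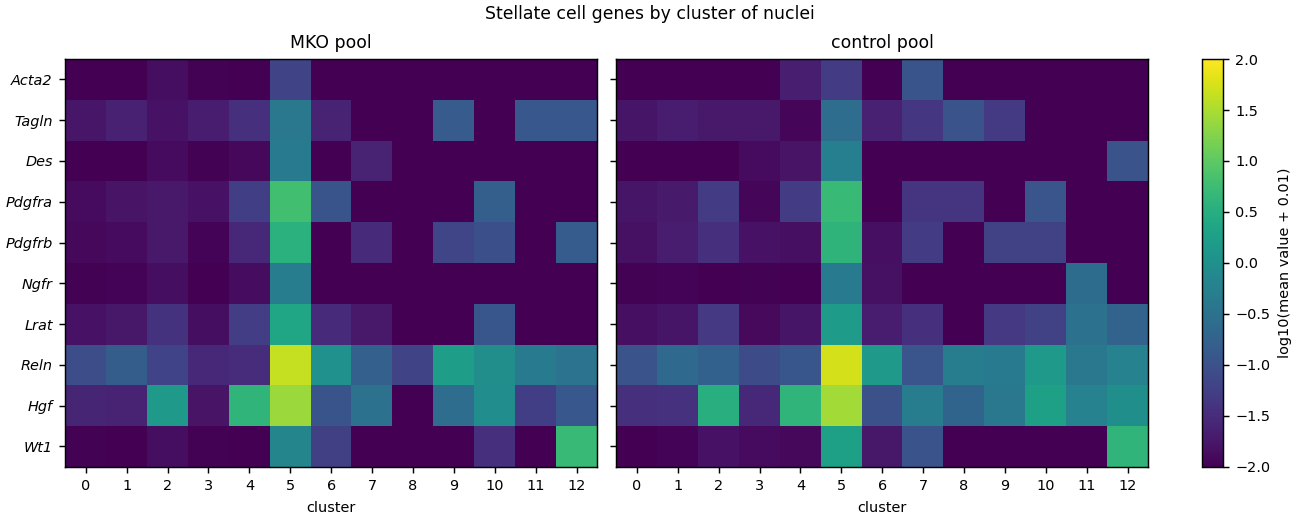
Mean value of each of the 10 genes (rows) in the 13 clusters of nuclei (columns), as log10(value + 0.01), in the MKO pool (left) and the control pool (right). Stellate-like cluster 5 is the brightest column for 8 genes in both pools, and Wt1 is brightest in cluster 12.

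Acta2 was nearly unread in these nuclei. It was at 0.0560 in cluster 5 of the MKO pool and 0.0395 in that of the control pool, and it was at 0 in 10 of 13 clusters of each pool; its highest value anywhere was 0.101, in lymphocyte-like cluster 7 of the control pool. Tagln stood at 0.383 in cluster 5 of the MKO pool and at 0.255 in that of the control pool. Des stood at 0.450 and Ngfr at 0.470 in the MKO pool, against 0.516 and 0.428 in the control pool. These 4 genes lay under the floor of 1.18 set for a ratio in cluster 5, the 90th percentile of its non-zero values, so no ratio was taken. Vascular smooth muscle markers summed to 8.79 in cluster 5 of the MKO pool and 8.98 in that of the control pool, with Cnn1 and Actg2 at 0 in both. Of the 12 markers of that list, 4 in the MKO pool and 3 in the control pool were at least 2-fold higher in cluster 5 than in any other cluster.

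The other 6 members reached the floor in cluster 5, and 1 of them, Wt1, was past 2-fold, against 2.90% of the 1899 genes at the floor. Reln read 43.9 in the MKO pool and 55.3 in the control pool, a log2 ratio of -0.33. Hgf read 25.3 in the MKO pool and 27.8 in the control pool (-0.14). Pdgfrb read 3.60 in the MKO pool and 3.98 in the control pool (-0.14). Pdgfra read 6.04 in the MKO pool and 5.15 in the control pool (0.23). Lrat read 2.26 in the MKO pool and 1.59 in the control pool (0.48). These 5 log2 ratios lie within -0.33 to 0.48, beside a median of -0.13 over all genes at the floor. Tgfbr1 in the same cluster read 2.13 in the MKO pool and 2.84 in the control pool. Hepatocyte markers summed to 96.3 in cluster 5 of the MKO pool and to 59.6 in that of the control pool.

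**Figure D4:**
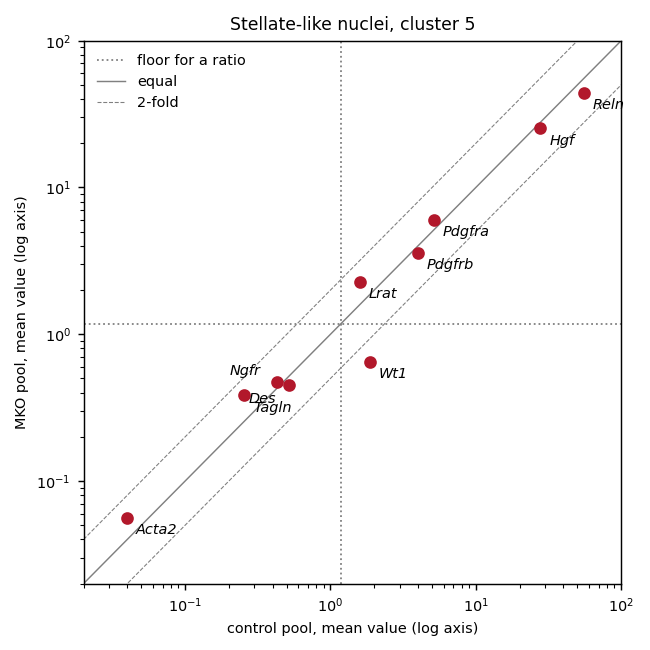
Mean value in stellate-like cluster 5 of the MKO pool (y axis) against the control pool (x axis), both on log axes, for the 10 genes; solid line, equal values; dashed lines, 2-fold; dotted lines, the floor for a ratio. Wt1, at 0.652 in the MKO pool and 1.87 in the control pool, is the gene at the floor outside the 2-fold lines.

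Wt1 was lower in the stellate-like nuclei of the MKO pool, at 0.652, against 1.87 in the control pool. The log2 ratio of -1.37 was the second lowest of the 1899 genes at the floor, after Sned1, named after its values were seen, and the MKO value lies under the floor; with a pseudocount equal to the floor it was -0.73. In mesothelial-like cluster 12, Wt1 read 5.14 in the MKO pool and 4.20 in the control pool, a log2 ratio of 0.28, where 19.0% of genes at the floor were past 2-fold. Cluster 12 held 11731 genes above 0 in the MKO pool and 9088 in the control pool. Of mesothelial markers in cluster 5, Msln, Krt19, Krt7, Lrrn4, Muc16 and Bnc1 were at 0 in both pools, and the sum of the list was 11.7 in the MKO pool and 12.8 in the control pool, most of it from Efna5 (11.7 in the MKO pool and 12.7 in the control pool). The bulk limma estimate for Wt1, 0.59, had the opposite sign from its ratio in cluster 5 and an interval that spans 0.

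Hgf was also read outside stellate-like nuclei. In endothelial-like cluster 4 it stood at 4.15 in the MKO pool and 4.07 in the control pool, a log2 ratio of 0.02, where 2.23% of genes at the floor were past 2-fold. In macrophage-like cluster 2, whose cells the deletion is directed at, it stood at 1.39 in the MKO pool and 3.16 in the control pool. The MKO value lies under the floor of 1.44, and the log2 ratio of -1.11 stands beside 9.76% of the 1905 genes at the floor that were past 2-fold. A lower MKO value was not confined to cluster 2. Hgf read 0.909 in cluster 10 of the MKO pool and 1.86 in that of the control pool. In cluster 12 it read 0.112 in the MKO pool and 0.989 in the control pool. These values lie under the floors of 2.01 and 2.05, so no ratio was taken. In cluster 6 the MKO pool was the higher, at 0.0977, against 0.0867 in the control pool. Reln, at 43.9 in cluster 5 of the MKO pool and 55.3 in that of the control pool, read 0.0533 in cluster 2 of the MKO pool and 0.166 in that of the control pool. Stellate markers summed there to 0.83 in the MKO pool and to 0.93 in the control pool.

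**Figure D5:**
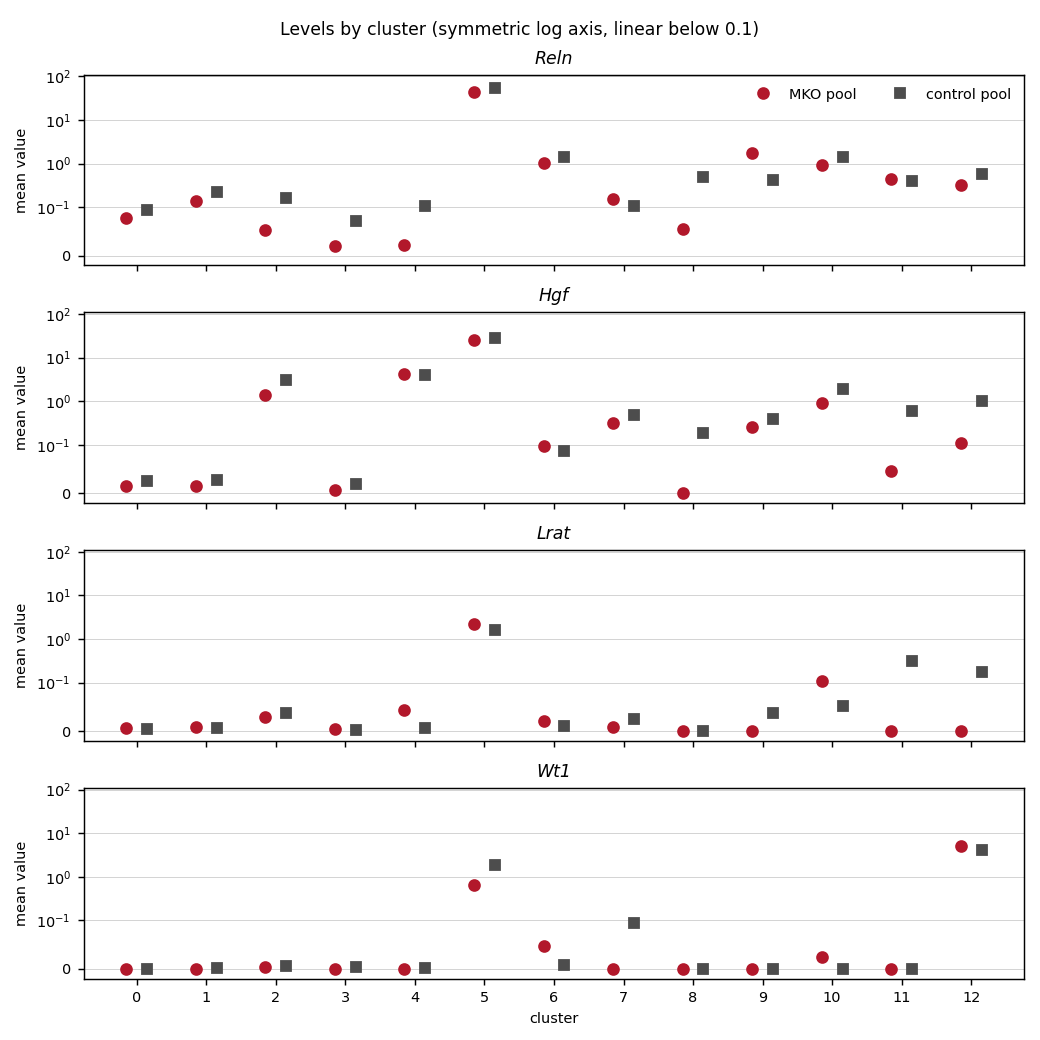
Mean value of Reln, Hgf, Lrat and Wt1 (y axes, symmetric log, linear below 0.1) in clusters 0 to 12 of the MKO pool (red circles) and the control pool (grey squares). Hgf has values above 1 in clusters 2, 4 and 5 of both pools, and Wt1 has its highest values in clusters 12 and 5.

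Outside cluster 5, Reln reached the floor for a ratio only in cluster 9, which was led by Mecom and Vwf. By the count used above, 1 of 12 endothelial markers was at least 2-fold higher there than in any other cluster. Endothelial markers nevertheless summed to 82.4 in cluster 9 of the MKO pool and 97.4 in that of the control pool. Those sums were second to the ones of endothelial-like cluster 4 (163 in the MKO pool and 167 in the control pool). Reln stood in cluster 9 at 1.77 in the MKO pool and 0.418 in the control pool, a log2 ratio of 1.72, where 4.48% of genes at the floor were past 2-fold. Stellate markers summed to 1.94 in cluster 9 of the MKO pool and to 2.12 in that of the control pool. The floor of cluster 9 was 1.70, so that the Reln value of the MKO pool was just above it and that of the control pool under it.

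Around the members, few listed genes in stellate-like cluster 5 were past 2-fold between the pools. Of 23 stellate identity genes 17 reached the floor and 0 were past 2-fold, with a median log2 ratio of 0.17. The largest ratios in either direction were those of Angptl6, at 1.19 in the MKO pool and 0.615 in the control pool (0.84), and Hhip (0.80). Among those lower in the MKO pool, Adamtsl2 read 1.71, against 2.57 in the control pool (-0.55). Dcn read 36.5 in the MKO pool and 25.5 in the control pool (0.51). Of 22 fibrogenic genes 7 reached the floor and 1 was past 2-fold, Ccn2, at 2.40 in the MKO pool and 0.699 in the control pool (1.62), a control value under the floor of 1.18. Sparc, a matrix-binding protein of the same list, read 2.76 in the MKO pool and 2.03 in the control pool, and Fbn1, fibrillin, 2.37 in the MKO pool and 2.90 in the control pool. Of 24 retinoid genes 5 reached the floor, with a median log2 ratio of 0.53. Past 2-fold was 1 of them, Rbp4, at 8.85 in the MKO pool and 4.10 in the control pool (1.09). Ttr, a hepatocyte marker, was higher to a like extent there, at 13.6 in the MKO pool and 6.14 in the control pool (1.13), and the part of hepatocyte RNA in the Rbp4 value was not tested. Pdgfd, a ligand of the beta receptor, read 3.60 in both pools.

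Over the 26 columns of cluster and pool, the members did not share 1 pattern. Pearson's r of log2(value + 0.1) was 0.96 between Pdgfra and Pdgfrb, 0.94 between Lrat and Ngfr, and 0.92 between Lrat and Des, but 0.29 between Acta2 and Wt1. The columns share pools and a common scale, so these are descriptions. Among genes with a largest value of at least 1, the most alike were Hhip for Pdgfra (r = 0.98), Nr1h5 for Pdgfrb (0.98), Pakap for Des (0.99), Adamtsl2 for Lrat (0.95) and Lrat for Ngfr (0.94). For Reln it was Robo2 (0.92), for Hgf Abcc9 (0.89), for Tagln Lama2 (0.88) and for Acta2, which rests on very low values, Aff2 (0.81). For Wt1 it was its antisense gene Wt1os (0.97), at 2.81 in cluster 12 of the MKO pool and 2.41 in that of the control pool; the sources used here do not say whether counting used strand, so reads of the pair may not be separable.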

How the data were processed

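Liver RNA was measured by bulk RNA-seq in 3 MKO and 3 control samples and by single-nucleus RNA-seq in 1 pool of 3 livers per genotype. The submitters' processing notes name Seurat 4.0.1, Cell Ranger, DESeq2, RSEM 1.3.3, STAR and FastQC with mm10, and the sources used here do not give their settings or how doublets were treated. Bulk values, as deposited, are a signal, gene counts divided by a size factor per library; whole reads were recovered for 100% of values (tolerance 0.01). The deposited nucleus values are a signal too, a mean per cluster and pool with each of 26 columns summing to 10000. The authors' deposited log2 fold changes and p-values were read only for the members. Because the values are normalised, limma-trend 3.58.1 (R 4.3.3, genotype as the only term, two-sided) was fitted to log2(value + 1) over 15249 genes with a mean of at least 1, with edgeR 4.0.16 and DESeq2 1.42.0 on recovered reads as alternatives; fold changes are on this scale, whose pseudocount draws those of low genes towards 0. In the nuclei, a log2 ratio was taken where the larger value reached the 90th percentile of a cluster's non-zero values (pseudocount 0.1 of it). Other alternatives were scaling, pseudocount, filter, replicate block and single libraries left out. The members and lists were chosen with earlier results of these data known. Named were all members, up to 4 called genes or else the most abundant gene of each list in bulk, up to 3 genes per list with the largest ratio in clusters 5 and 12 (also given in bulk), and the genes most alike over clusters; others are named as chosen after their values were seen. Some genes that this rule takes are not reported here. The scripts were tested on simulated data.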

Additional observations from a re-analysis of the deposited data

How the results depend on the processing

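The count of 0 of 10 members called was the same in every alternative run: edgeR, DESeq2, TMM scaling, quantile normalisation, pseudocounts of 0.5 and 5, no filter, a mean of at least 10, the replicate block and each library left out. The count of all genes called was 465, and 180 to 441 with 1 library left out. Called genes of the related lists numbered 14, 24 by DESeq2 and 5 to 17 with 1 library left out. Same-numbered MKO and control libraries did not deviate together (r of -0.11 to 0.056). No label pairs them, but such correlations cannot show that they were not paired. With the replicate block 408 genes and 0 members were called. Acta2 turned negative with DESeq2 (-0.046), edgeR (-0.054) and quantile normalisation (-0.20), without MKO 1 (-0.023) and without control 3 (-0.33). A fit without both control 3 and MKO 1, chosen after seeing the data, called 0 members (lowest adjusted p = 0.0900, Hgf). With that fit and 1 library left out, estimates ran from -0.38 to 0.25 for Acta2, -0.055 to 0.49 for Pdgfrb, -0.0078 to 0.38 for Ngfr and -0.019 to 0.28 for Reln. Related genes near 0 also changed sign: -0.28 to 0.13 for Fn1, -0.14 to 0.0048 for Hpn, -0.099 to 0.14 for Alb, -0.24 to 0.039 for Crk and -0.12 to 0.21 for Mylk. With quantile normalisation Fn1 stood at 0.024 and Hpn at 0.055. The cause was not tested. With 26 to 54 reads for Acta2 and 8 to 36 for Wt1 in a library, depth limits both, and no depth is known for the nuclei.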
